A study of Mus musculus with 20 samples.

Results

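Introns rich in splicing intermediates were chosen from a deposited table of long-read counts as those at which, in at least 1 of 2 conditions, at least 10 reads were spliced or intermediates and intermediates made up at least 0.15 of them. That share is called NIC, intermediates divided by intermediates plus spliced reads. The rule found 388 introns in 270 genes, 7.17% of the 5409 introns that had at least 10 such reads in 1 or both conditions, out of 6537 introns in the table. The other 5021 introns with enough reads serve as the comparison.

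The reads come from murine erythroleukemia (MEL) cells, a wild-type mouse line of red cell precursors that matures partly when dimethyl sulfoxide (DMSO) is added. Untreated cells (uninduced) were compared with cells kept in 2% DMSO for 5 days (induced), each condition with 2 biological replicates run on both the PacBio RSII and Sequel instruments, 4 samples per condition. RNA was taken from the chromatin fraction and depleted of polyadenylated and ribosomal RNA, so that it is enriched in molecules still being made. The other 12 of the 20 samples, which are long reads of inserted human beta-globin genes and run-on sequencing, were not analysed here. The table has 1 line per intron and condition, taken here as the sum of all libraries of that condition, although which were added is not stated in the sources used here. Values therefore carry counting error but no replicate error; a comparison of conditions compares 2 pools of libraries.

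Splicing proceeds in 2 chemical steps. The first cuts the RNA at the 5′ splice site and leaves the upstream exon with a free end, while the intron is held as a lariat on the downstream exon; the second joins the exons at the 3′ splice site. A splicing intermediate is understood here as a read that ends with that freed upstream exon, so an intron rich in them is one where the first step had been completed and the second had not in many of the captured molecules. Introns are recognised through a short 5′ site that pairs with U1 and U6 RNA and through a 3′ site made of a pyrimidine-rich stretch and a closing AG.

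The sites of the introns with the highest or best-counted NIC are shown to let the pyrimidine stretch be compared, since over the whole set the score of the 3′ site differed more from that of the other introns than the 5′ score did. Each 3′ site is the last 20 bases of the intron and the first 3 of the next exon, and capitals mark purines among the first 17 bases. The stretch was interrupted most at Hnrnpk, Hbs1l, Uba7 and Prpf4b, and least at Narf and Kel, where the base before the closing AG was not the usual pyrimidine.
Alas2 intron 5, 3′ site: ttccActttcttGGGGccaggga
Pkhd1l1 intron 16, 3′ site: cttttGAAAttcAtccAaagtct
Hnrnpk intron 6, 3′ site: AAcGccAAtGAccAAtGcagtac
Srsf5 intron 5, 3′ site: cAtAAttGtcttGtGttaaggat
Kel intron 8, 3′ site: ttttGtGtcttttctctaaggaa
Narf intron 8, 3′ site: ttttGtcctctctGtttgaggtt
Hbs1l intron 4, 3′ site: tccttAAttAGGAAAAtcagtta
Uba7 intron 2, 3′ site: GGGGAGtctccttGAtcaagctg
Prpf4b intron 2, 3′ site: ccttttGAtGGtGcGGAaagaga

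Each 5′ site below is the last 3 exon bases and the first 6 intron bases, and capitals mark departures from the most frequent base at each position over all 5409 introns, which reads aaggtaagt. These were chosen to show that a strong and a weak 5′ site both occur among the leading introns.
Alas2 intron 5, 5′ site: aGAgtaagt
Hnrnpk intron 6, 5′ site: GaCgtaagt
Pkhd1l1 intron 16, 5′ site: CTggtaGCt
Kel intron 8, 5′ site: CaggtGCCA
Dnmt1 intron 10, 5′ site: aaggCaaAG

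The deposited scores, which rise as a site approaches the common pattern, were low at several of these sites but did not follow the number of capitals exactly. At the 3′ site the score was 0.09 for Hnrnpk intron 6, -7.96 for Hbs1l intron 4, -1.14 for Uba7 intron 2 and -3.33 for Prpf4b intron 2, against a median of 8.83 over the other introns. At the 5′ site it was 10.93 for Hnrnpk intron 6, but 3.75 for Kel intron 8, 1.65 for Pkhd1l1 intron 16 and 1.31 for Dnmt1 intron 10, against a median of 8.85.

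In the uninduced pool 268 of 4580 introns (5.85%) met the rule, and in the induced pool 158 of 2501 (6.32%). These introns held 34.0% of all intermediates on 3.49% of the uninduced reads (1326 of 3900 intermediates) and 43.1% on 5.77% of the induced reads (1429 of 3313). The rule itself sets this concentration, so it is a description. The median NIC of the chosen introns was 0.202 before induction and 0.209 after it. Most were carried by few molecules: of the 426 pairs of an intron and a pool that met the rule, 116 had 2 intermediates, 160 had 3 or 4, 101 had 5 to 9, 30 had 10 to 19 and 19 had 20 or more. At 2 intermediates in 10 reads NIC is 0.2 with a 95% Wilson interval from 0.0567 to 0.51, and the lower bound reached 0.15 in 87 of the 426 pairs. Intervals of NIC cover counting error only, since the libraries were amplified by PCR and the use of molecular identifiers in counting is not stated. Intervals of a share of introns treat introns as separate draws, although introns of 1 gene share reads. At the line itself, intron 5 of Mat2a, which makes the methyl donor synthetase, lay just inside with 6 intermediates in 40 uninduced reads and 0 in 12 induced reads.

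The intron with the most intermediates lay in a gene of heme synthesis. Intron 5 of Alas2 (chrX:150557409-150557938, GRCm38, between coding exons, 530 nt), the gene of the enzyme that opens heme synthesis in erythroid cells, had 183 intermediates in 237 induced reads, a NIC of 0.772 (Wilson interval 0.715 to 0.821). In the uninduced pool the intron had 5 reads in all, each spliced, and no line for intermediates. In bulk RNA, fewer cells making a transcript and less of it per cell cannot be told apart. The other 9 introns of Alas2 had 27 intermediates in 1373 induced reads, 1.97%.

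Among globin genes, 2 of 7 introns met the rule (28.6%, against 7.17% of all introns). Intron 2 of Hba-a2 (alpha-globin, chr11:32296946-32297079) had 89 intermediates in 223 induced reads, a NIC of 0.399 (interval 0.337 to 0.465), while the first intron of the gene had 6 in 336 (1.79%). Intron 2 of Hbb-bt (beta-globin, chr7:103812785-103813438) had 4 in 57 uninduced reads and 23 in 74 induced reads, NIC values of 0.0702 and 0.311. Both genes have near-identical copies beside them, so the assignment of reads between copies is uncertain, and the second intron of Hba-a1 was below the line in both pools (0.0104 and 0.14). Intron 3 of Car1 (carbonic anhydrase 1, chr3:14770904-14776217, 5314 nt) had 53 in 220 uninduced reads, a NIC of 0.241 (interval 0.189 to 0.302). It met the rule before induction, where Hbb-bt intron 2 did not and Hba-a2 intron 2 had too few reads to be assessed.

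Genes of the red cell surface and membrane skeleton gave 13 of 128 introns (10.2%, against 7.17% of all introns), from 7 of 10 genes. All 4 chosen introns of Slc4a1 (band 3, the anion exchanger) were called in the induced pool, with 3 to 7 intermediates in 11 to 29 reads. Outside that list, intron 4 of Ermap (an erythroblast membrane protein, chr4:119185823-119187095) had 33 in 151 uninduced and 26 in 164 induced reads, NIC 0.219 and 0.159. Kel, the Kell blood group protease, had a pair of such introns in both pools. At its intron 6 (chr6:41699227-41701912) NIC was 0.364 before induction (8 of 22) and 0.694 after it (25 of 36), and at intron 8 (chr6:41698449-41698887) it was 0.682 in each (15 of 22 in both). The intron between them had 1 intermediate in 39 reads in either pool, so the high values did not spread to it. Pkhd1l1, a large membrane protein gene of the fibrocystin family, had 76 introns in its transcript, and 32 of 54 uninduced and 48 of 64 induced reads at intron 16 (chr15:44498602-44499248) were intermediates, NIC 0.593 and 0.75. In the uninduced pool intron 57 also met the rule, with 2 in 12 reads, and the 49 introns that did not had 32 intermediates in 1975 reads (1.62%).

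**Figure D1:**
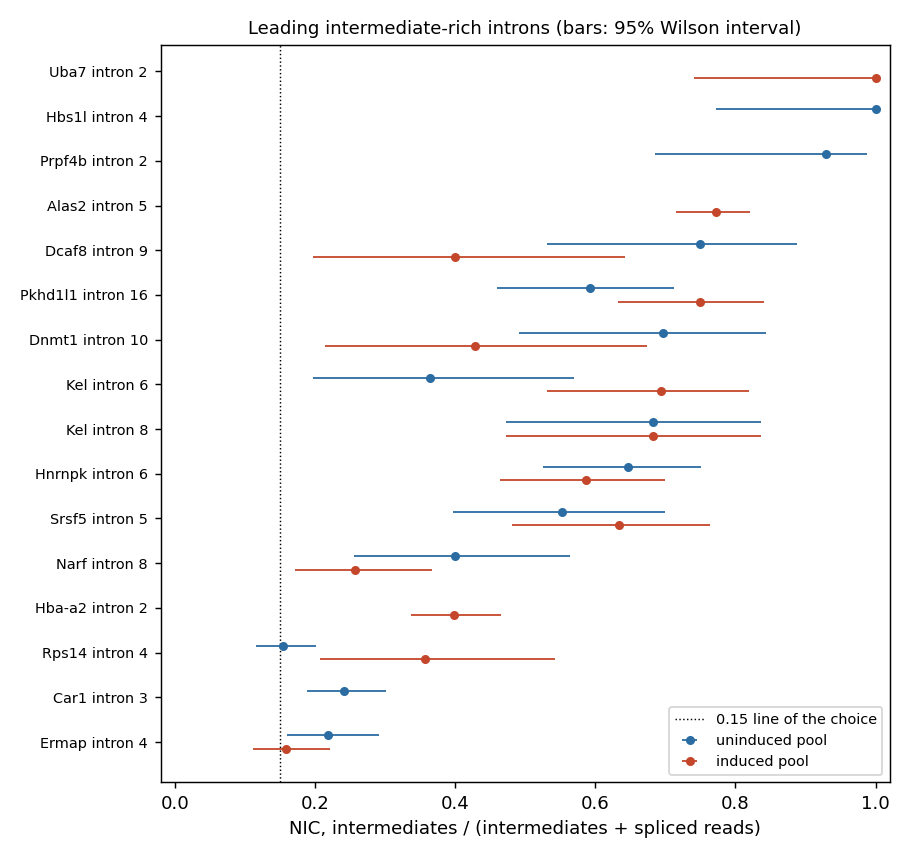
NIC (horizontal axis, from 0 to 1) of introns among those with the most intermediates, the highest lower bounds or the most intermediates in both pools, with 95% Wilson intervals; blue is the uninduced and red the induced pool, and the dotted line is 0.15. Introns with 1 colour have no line in the other pool, and for Kel intron 8 the values of 0.682 coincide.

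SR proteins, which bind exons and recruit the spliceosome, gave 6 of 22 introns (27.3%, against 7.17% of all introns) in 3 of 4 genes. Intron 5 of Srsf5 (chr12:80947866-80949094) had 21 intermediates in 38 uninduced and 26 in 41 induced reads, NIC 0.553 (interval 0.397 to 0.699) and 0.634 (interval 0.481 to 0.764). Its intervals overlap between the pools, and 5 of 8 annotated transcripts that span the intron use it, 1 other 3′ site being annotated for the same 5′ site. The other 5 introns, in Srsf3 and Srsf7, had 2 to 4 intermediates where they met the rule. Intron 6 of Hnrnpk (chr13:58397797-58399155), which makes a poly(C)-binding protein, had 42 in 65 uninduced and 37 in 63 induced reads, NIC 0.646 and 0.587; with 10 purines in the 17 bases before its closing bases it had the most interrupted stretch of those printed. hnRNP genes gave 3 of 29 introns (10.3%) and core spliceosome genes 3 of 39 (7.69%), the latter close to the share over all introns. Nucleolar protein genes gave 6 of 26 (23.1%), 4 of them in Nop56, a core protein of box C/D small nucleolar particles. Intron 6 of Nop56 had 21 in 50 uninduced and 4 in 21 induced reads, NIC 0.42 and 0.19.

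The other lists ranged from above to below the 7.17% of all introns. Heme synthesis genes gave 5 of 40 introns (12.5%), among them intron 7 of Alad and intron 3 of Ppox besides that of Alas2, and chaperones gave 10 of 95 (10.5%), 4 of them in Hspa8. Initiation factors gave 9 of 135 (6.67%), 1 in each of 9 genes, elongation factors 2 of 34 (5.88%), glycolysis genes 3 of 58 (5.17%), tRNA synthetases 2 of 50 (4.00%) and proteasome genes 4 of 102 (3.92%). Cytosolic ribosomal protein genes gave 7 of 290 introns (2.41%), of which 5 were in Rpl3 alone. The best counted of them, intron 4 of Rps14, had 42 in 272 uninduced and 10 in 28 induced reads, NIC 0.154 and 0.357. Actin and tubulin genes gave 0 of 17, nonsense-mediated decay factors 0 of 1 and erythroid transcription factors 1 of 6 (16.7%), intron 3 of Gata1. No list is tested here: introns of 1 gene share reads, and the lists were chosen with earlier results of these data known.

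At the top of the scale stood introns with a NIC near 1 on few reads. Intron 4 of Hbs1l (a GTPase that rescues stalled ribosomes, chr10:21307780-21336975) had 13 intermediates in 13 uninduced reads, and intron 2 of Uba7 (the activating enzyme for ISG15, chr9:107975966-107976034) had 11 in 11 induced reads. Neither intron had a spliced read in either pool, against 22 and 14 unspliced reads at Hbs1l and 23 and 108 at Uba7. Each is found in 1 annotated transcript, of 4 and 9 that span it, and its 5′ site also serves 3 and 2 other annotated 3′ sites. An intermediate shows only the 5′ site, so the 3′ site it would have used cannot be told from it. Intron 2 of Prpf4b (a kinase of splicing factors, chr13:34902676-34903186) had 13 in 14 uninduced reads, and an annotated transcript of the gene ends at its 5′ site. Over all chosen introns, 70 (18%) shared their 5′ site with another annotated 3′ site, against 14.6% of the others, and 21 (5.41%, Wilson interval 3.57 to 8.13%) had an annotated transcript end within 10 nt of the 5′ site, against 3.94%. The part of such ends in NIC was not tested.

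Most genes had a single chosen intron. Of the 270 genes, 198 had 1 chosen intron, 47 had 2 and 25 had 3 or more, and 53 pairs of chosen introns were neighbours. Where the gene had another intron with enough reads in the same pool, the chosen intron had the highest NIC of its gene in 308 of 416 cases (74.0%), a count that the choice favours. The unchosen introns of the same genes lie below the line by the rule, and there intermediates made up 2.66% of uninduced reads (928 of 34897) and 3.22% of induced reads (1028 of 31949), against 1.48% and 2.10% in the remaining genes. The unchosen introns were thus above those of the remaining genes in both pools, and these shares have no test because the introns of a gene share reads.

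Dnmt1, the methyltransferase that maintains DNA methylation, had the most chosen introns, 7 of 23. Intron 10 (chr9:20930166-20932114) stood out among them, with 16 intermediates in 23 uninduced reads and 6 in 14 induced reads, NIC 0.696 and 0.429, and its 5′ site begins with GC instead of GT. The other 6 met the rule in the uninduced pool alone, on 2 to 5 intermediates each, and 12 further Dnmt1 introns had 14 in 366 reads (3.83%). Txnip, which binds and inhibits thioredoxin, had 4 of 7 introns chosen. Its first intron had 15 in 39 uninduced and 11 in 26 induced reads, NIC 0.385 and 0.423, and its second 11 in 64 and 9 in 49, NIC 0.172 and 0.184. Rpl3, a large ribosomal subunit protein, had 5 of 8, led by intron 8 with 10 in 22 uninduced reads. Adcy7 (an adenylyl cyclase) had 5 of 12, all from the uninduced pool, and Slc38a2 (a neutral amino acid transporter) 5 of 11, of which none met the rule in both pools.

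**Figure D2:**
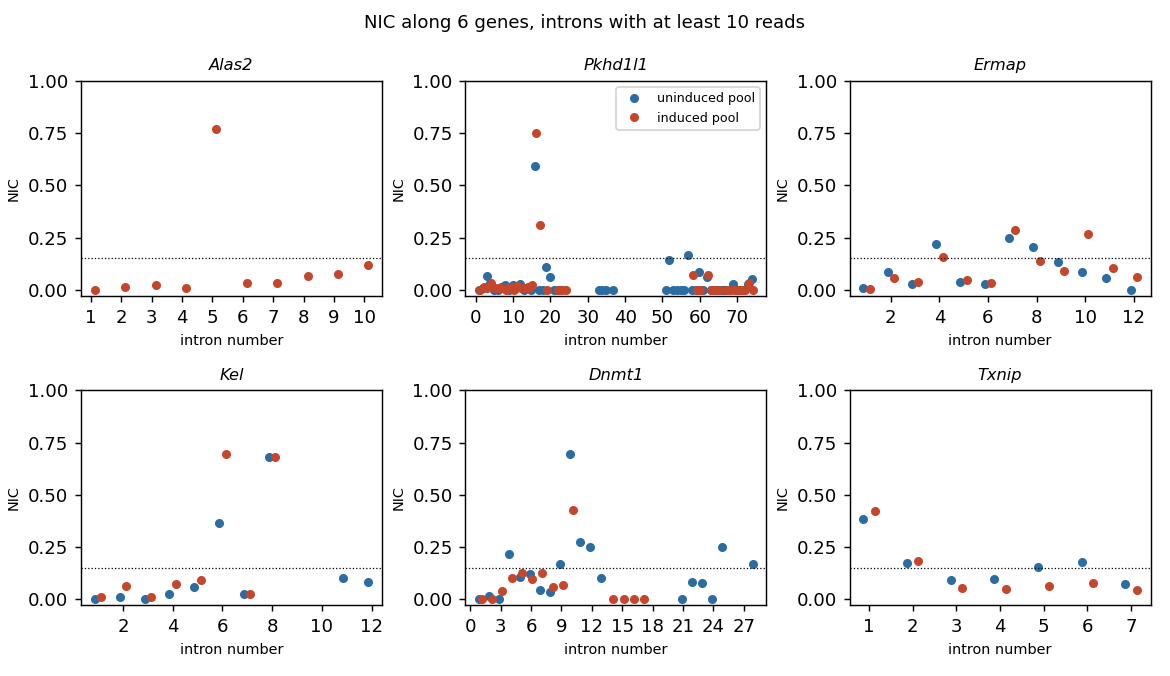
NIC (vertical axis) at each intron with at least 10 reads, in order from the start of the transcript (horizontal axis), for Alas2, Pkhd1l1, Ermap, Kel, Dnmt1 and Txnip; blue points are the uninduced and red points the induced pool, and the dotted line is 0.15. Single introns stand above their neighbours in Alas2 (0.772 at intron 5), Pkhd1l1 (intron 16), Kel (introns 6 and 8) and Dnmt1 (intron 10), whereas in Txnip the first intron is highest.

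At the median, fewer reads reached the intron after a chosen one. For introns with at least 10 reads at the preceding intron, the reads covering the following intron (spliced plus unspliced) were divided by those covering the preceding one, a ratio that uses no count from the chosen intron. In the uninduced pool its median was 0.667 over 241 chosen introns, 0.568 over the 51 with a NIC of at least 0.30 and 0.859 over 3157 others. In the induced pool the medians were 0.63 over 145, 0.498 over 32 and 0.848 over 1741. The ratio was under 0.5 at 19.9% and 24.8% of chosen introns and at 6.68% and 7.12% of the others. At Alas2 intron 5 it was 0.224 (295 reads before, 66 after, induced). At Srsf5 intron 5 it was 0.294 without DMSO (136 and 40) and 0.243 with it (74 and 18), and at Hnrnpk intron 6 0.268 (142 and 38) and 0.308 (117 and 36). The drop was thus of like size in both pools at these last genes. Some chosen introns went the other way in the uninduced pool. The ratio was 1.62 and 1.27 at Txnip introns 5 and 6, 2.29 at Slc38a2 intron 5 and 10.5 at Car1 intron 3 (17 reads before, 178 after). A read that ends as an intermediate cannot cover the next intron, so the ratio is no independent measure of splicing; it gives the loss in reads that goes with a high NIC.

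Chosen introns lay away from the start of the transcript. First introns were 6 of 388 chosen introns (1.55%, Wilson interval 0.711 to 3.33%) and 857 of 5021 others (17.1%, interval 16.1 to 18.1%). The 6 were those of Txnip, Cox7c, Chd2, Jmjd1c, Zfp217 and Pik3r3. In the uninduced pool the share of introns that met the rule was 0.533% at first introns (4 of 750), 2.52% at intron 2, 6.21% at intron 3 and 10.0% at the sixth to ninth. In the induced pool the same shares were 0.673% (3 of 446), 3.94%, 3.22% and 11.6%. At introns 10 and later it was 7.91% without DMSO and 12% with it. Intron 3 therefore lay above intron 2 in the uninduced pool alone. With reads added together, intermediates made up 0.329% at first and 5.00% at sixth to ninth introns before induction, and 0.515% and 7.94% after it.

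The share also rose with distance in exon sequence, up to 1600 nt. Where at most 200 nt of exon preceded the 5′ site, 1 of 690 introns met the rule without DMSO (0.145%) and 0.244% with it; at 801 to 1600 nt the shares were 9.76% and 11.7%, and beyond 1600 nt 8.35% and 11.6%. The step was still present among introns 2 to 5 alone, from 0.546% at up to 200 nt to 3.88% at 201 to 400 nt and 6.83% at 401 to 800 nt in the uninduced pool, and from 0.98% to 3.38% and 6.02% in the induced pool; beyond 1600 nt these introns were only 20 and 10, of which 5 and 0 met the rule. How the recovery of short cDNAs moves with length was not tested. Introns between coding exons were 95.9% of the chosen introns and 91.5% of the others, and introns in the 5′ UTR 1.80% and 6.89%. The last intron of the transcript was found about as often in either set, 6.96% and 6.73%.

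**Figure D3:**
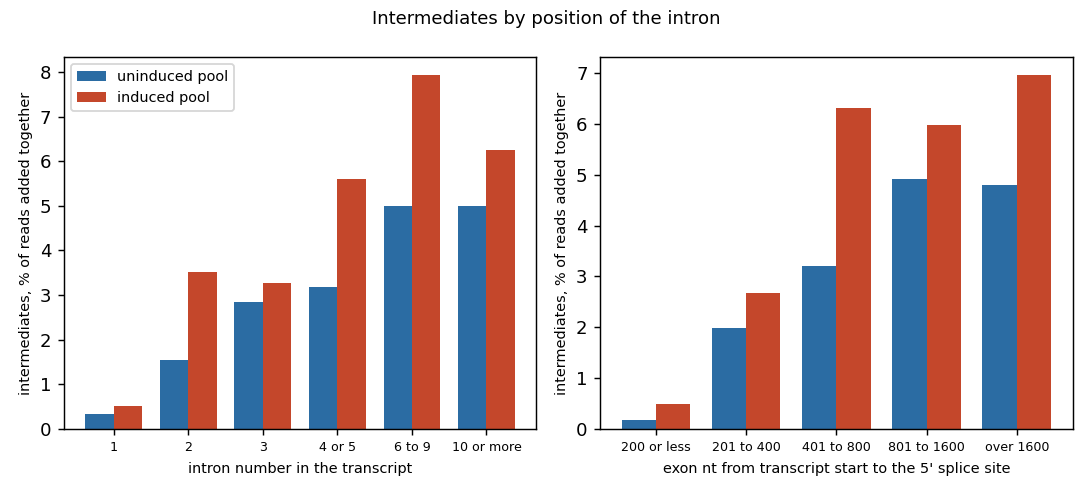
Intermediates as a percent of intermediates plus spliced reads, all introns of a class added together (vertical axes), by intron number (left) and by exon nucleotides from the transcript start to the 5′ site (right), for the uninduced (blue) and induced (red) pools. In the left panel first introns stand lowest at 0.329% and 0.515%, and sixth to ninth introns highest in the induced pool at 7.94%. In the right panel the class of 200 nt or less stands lowest, at 0.167% and 0.479%.

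Over the whole set the score of the 3′ splice site differed more than that of the 5′ site. Its median score was 8.14 over chosen introns, 7.26 over the 38 that met the rule in both pools and 8.83 over the others. Of the chosen introns 61.1% scored below the median of all 5409, and of the 38 76.3%. A 3′ score under 5 was found at 14.7% of chosen introns (interval 11.5 to 18.6%) and 7.01% of the others (interval 6.34 to 7.75%). The 5′ site differed by less: its median score was 8.57 over chosen introns, 8.14 over the 38 and 8.85 over the others, 56.2% of chosen introns scored below the overall median, and a score under 5 was found at 9.54% against 6.69%. At a NIC of 0.30 or more the 5′ median was 7.77 in the uninduced pool, against 8.88 at a NIC of 0, and the 3′ median 7.88 against 8.93, so there the gaps were alike. In the induced pool the same 5′ medians were 8.64 and 8.88 and the 3′ medians 7.17 and 8.77. Both scores were under 5 at 8 chosen introns (2.06%) and 38 others (0.757%). The ranges overlapped widely, since the chosen introns had 3′ scores from -7.96 to 14.1 and the others from -14.6 to 15.3.

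Single letters shifted by up to 11.3 percentage points. At the 5′ site the median number of departures from aaggtaagt was 3 in both sets. Intron base 3 was T or C at 8.76% of chosen introns and 4.92% of the others, and G at 27.1% and 33.5%. The most frequent base there, A, was found at 64.2% and 61.6%. Intron base 5 was G at 76.0% and 80.6%. At the 3′ site the median number of pyrimidines among the 17 bases was 13 in both sets and 12 over the 38. Within the stretch, base 10 of the printed 3′ site was T at 47.9% of chosen introns and 59.2% of the others, the largest shift of any letter at either site. The other pyrimidine, C, was more frequent there, at 28.9% and 22.4%, so the loss of T is only partly a loss of pyrimidines. The base before the closing AG was C or T at 90.7% of chosen introns, 81.6% of the 38 and 94.4% of the others. The next exon began with G at 41.2% of chosen introns and 50.1% of the others.

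Chosen introns were somewhat shorter, and their median GC content was like that of the others. The median length was 857 nt over chosen introns, 594 nt over the 38 and 1134 nt over the others, and 57.0% of chosen introns were shorter than the median of all. That share was 54.4% with 1 intron per gene (interval 48.5 to 60.3%) and 54.2% without first introns (interval 49.2 to 59.1%), intervals that include an even split. Introns of 100 nt or less were 10.3% of the chosen and 6.13% of the others, and introns over 5000 nt were 7.73% and 13%. The length did not fall steadily with NIC. In the uninduced pool the median was 1246 nt at a NIC of 0, 760 nt above 0 to 0.05, 1098 nt from there to 0.15, 1289 nt from 0.15 to below 0.30 and 539 nt at 0.30 or more. In the induced pool the same medians were 1076, 721, 818, 784 and 530 nt, so in both pools the class at the top was the shortest. The median GC content was 43.6% over chosen introns, 45.2% over the 38 and 43.7% over the others. A GC content of 60% or more was found at 1.03% of chosen introns (interval 0.402 to 2.62%) and 3.49% of the others (interval 3.01 to 4.03%). This contrast was not repeated without first introns, which are rarer among the chosen. The share of chosen introns with a GC content above the median was 49.2%, and 53.7% when first introns were left out (interval 48.7 to 58.6%). Flanking exons had nearly equal medians, 120 and 121 nt upstream and 116 and 120 nt downstream. Chosen introns were more often left out of at least 1 annotated transcript that spans them, 39.4% (interval 34.7 to 44.4%) against 31.3% (interval 30.0 to 32.6%).

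**Figure D4:**
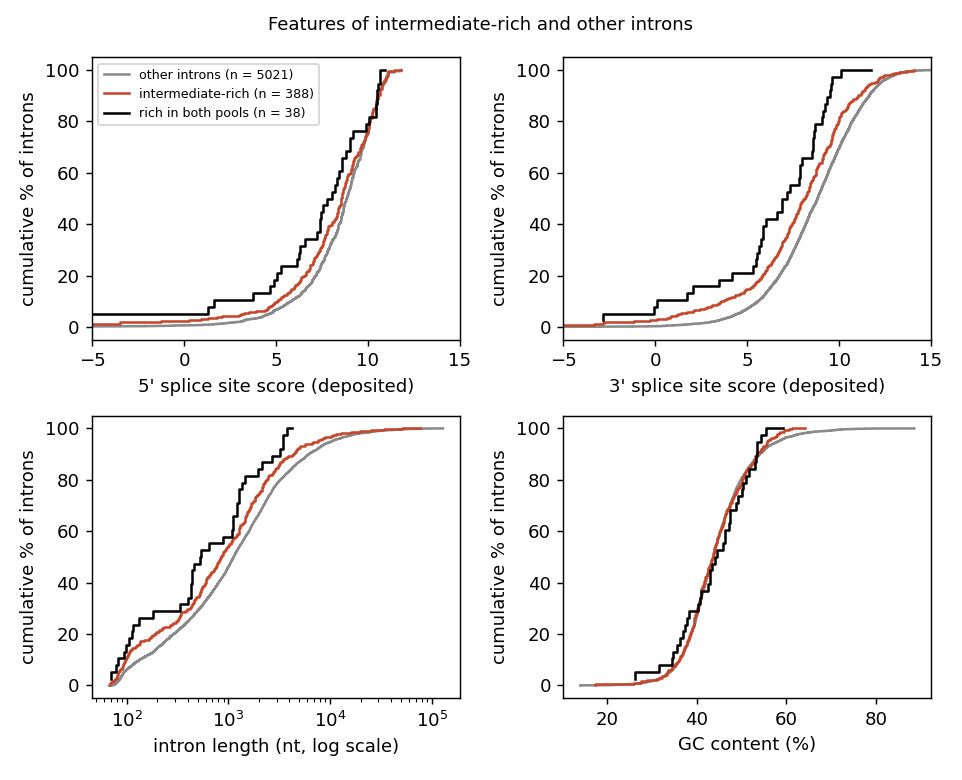
Cumulative percent of introns (vertical axes) by 5′ site score, 3′ site score, intron length on a log scale and GC content (horizontal axes), for the 388 intermediate-rich introns (red), the 38 that met the rule in both pools (black) and 5021 others (grey). The red and black lines lie left of the grey one for the 3′ score (medians 8.14, 7.26 and 8.83) and for length. For GC content the red and grey lines have like medians (43.6% and 43.7%), and the black line has a median of 45.2%.

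Intermediate-rich introns were also less often spliced in the reads that went past them. Co-transcriptional splicing efficiency (coSE), spliced reads divided by spliced plus unspliced reads, had a median of 0.867 over the 268 chosen introns of the uninduced pool and 0.963 over the other introns there. In the induced pool the medians were 0.843 and 0.969. It was below the median of all introns at 74.6% and 70.9% of the chosen. With reads added together, 25.5% of uninduced and 27.9% of induced reads at chosen introns were unspliced, against 6.80% and 10.3% elsewhere. NIC and coSE share the spliced reads, so this is no independent measure, and the gap was largest at the top: at a NIC of 0.30 or more the median coSE was 0.55 over 57 uninduced and 0.641 over 40 induced introns, against 0.914 and 0.906 between 0.15 and 0.30. A high NIC did not need a low coSE. All reads were spliced at 92 chosen introns in every pool where they met the rule, and coSE was under 0.5 at 44. Ermap intron 4 had a coSE of 0.96 and 0.974 in the 2 pools, and Pitrm1 intron 9, in a mitochondrial protease gene, had 1 in both beside NIC values of 0.219 and 0.2. Kel intron 8 had 0.262 and 0.367 and Srsf5 intron 5 0.449 and 0.485.

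Whether the conditions agree was read at the 1672 introns that reached 10 reads in each pool, of which 93 met the rule without DMSO (5.56% of 1672) and 99 with it (5.92% of 1672). The value in the pool that was not used for the choice is independent of it. Of the 93 introns chosen in the uninduced pool, 38 also met the rule in the induced pool, 40.9% (interval 31.4 to 51.0%), whereas 61 of the 1579 not chosen did, 3.86% (interval 3.02 to 4.93%). In the other direction it was 38 of 99, 38.4% (interval 29.4 to 48.2%), against 55 of 1573, 3.50% (interval 2.70 to 4.52%). The intervals do not overlap in either direction, but they treat introns as separate draws. Introns of 1 gene share reads and each condition is 1 pool, so this is a description. The median NIC in the pool not used was 0.111 and 0.1 for chosen introns and 0 for the others in both directions, and in the induced pool 17 of the 93 had no intermediate (18.3%), against 62.4% of those not chosen. The coSE of the pool not used was lower as well, with medians of 0.87 against 0.969 and 0.829 against 0.963.

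Agreement grew with the number of intermediates behind the choice. Of introns chosen in the uninduced pool on 2 intermediates, 4 of 20 met the rule in the induced pool (20.0%), on 3 or 4 intermediates 8 of 28 (28.6%), and on 5 or more 26 of 45 (57.8%, interval 43.3 to 71.0%). From the induced pool the same counts were 3 of 29 (10.3%), 8 of 22 (36.4%) and 27 of 48 (56.2%, interval 42.3 to 69.3%). Only 154 of the 388 introns had at least 10 reads in both pools; for the other 234 the agreement cannot be read at this depth. Among the 154, induction went with a higher NIC at 79, a lower one at 72 and an equal one at 3. Besides those described above, the 38 included introns of Pkm (intron 8, which leads into the mutually exclusive exons of pyruvate kinase, 18 in 92 and 5 in 15 reads), Mre11a (a DNA repair nuclease, intron 9, 7 in 17 and 6 in 16), Dctn2 (a dynactin subunit, intron 11, 8 in 19 and 7 in 21) and Kpna2 (a nuclear import receptor, intron 3, 5 in 18 in both).

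**Figure D5:**
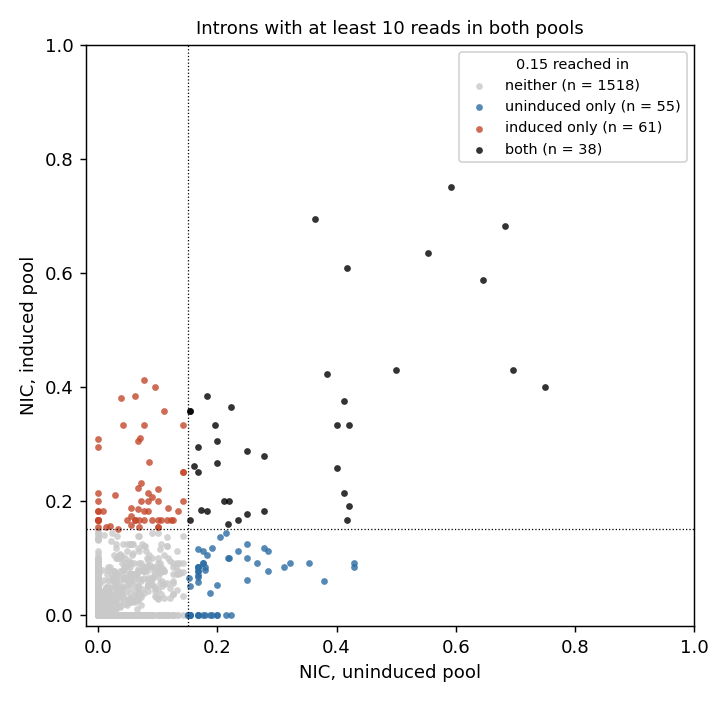
NIC in the uninduced (horizontal axis) and induced pool (vertical axis) at the 1672 introns with at least 10 reads in both; dotted lines mark 0.15, black points met the rule in both pools (38), blue in the uninduced pool only (55), red in the induced pool only (61) and grey in neither (1518). All black points with a NIC of at least 0.5 in either pool stand above 0.3 in the other.

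The largest differences between the pools rested on few molecules. Higher values after induction stood at intron 12 of Eef2 (elongation factor 2), with 2 in 53 uninduced and 8 in 21 induced reads, at intron 7 of Hspa8 (a constitutive heat shock protein), with 1 in 13 and 7 in 17, at intron 3 of Rbm3 (a cold-inducible RNA-binding protein), with 1 in 16 and 5 in 13, and at intron 17 of Pkhd1l1, with 0 in 13 and 4 in 13. Kel intron 6 was among them too. It was lower at intron 9 of Dcaf8 (a substrate receptor of a ubiquitin ligase), with 15 in 20 and 6 in 15, at intron 8 of Tars (threonyl-tRNA synthetase), with 6 in 14 and 1 in 12, and at intron 8 of Nxf1 (the mRNA export receptor), with 14 in 37 and 1 in 17. These introns were named for the size of this difference, so it is a description, and no test was made on NIC.

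The coSE of chosen introns was tested between the pools by a two-sided Fisher's exact test per intron on spliced and unspliced reads, with Benjamini-Hochberg adjustment over the 4403 introns of all genes that reached 10 reads in each pool. Of 243 chosen introns tested, 9 passed an adjusted p of 0.05 (3.70%), 4 with a lower and 5 with a higher coSE in the induced pool, against 1.61% of all introns tested, 1.25% lower and 0.363% higher. NIC shares the spliced reads with coSE, so these counts carry no test of their own. An intron with a coSE of 1 in both pools cannot pass. Among introns with enough reads for NIC, a coSE of 1 was found at 22.8% of chosen and 38.3% of other introns in the uninduced pool. In the induced pool it was 25.9% and 42.9%, and the shares that passed were not matched for this. An unadjusted p under 0.05 was found at 28 of the 243 (11.5%), against 7.97% of all introns tested. Over the 243, coSE was higher in the induced pool at 123, lower at 87 and equal at 33, with a median difference, induced minus uninduced, of 0.00658 against 0 over all introns tested. Of all chosen introns, 230 met the rule in the uninduced pool alone and 120 in the induced pool alone. Since the choice shares spliced reads with coSE, the split over the 243 is no test of induction.

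Lower in the induced pool were introns of Hbb-bt, Eef2, Rack1 and Aldoa. At Hbb-bt intron 2, 58 of 78 uninduced and 56 of 146 induced reads were spliced, coSE 0.744 and 0.384 (adjusted p of the Fisher's exact test 0.00014), while NIC was 0.0702 and 0.311. At Eef2 intron 11 (chr10:81181158-81181227), next to the intron of Eef2 named above, coSE was 0.838 and 0.432 (adjusted p 0.00136). At intron 2 of Rack1 (chr11:48801835-48802272), a scaffold on the ribosome whose intron hosts Snord96a and opens with GC, it was 0.807 and 0.423 (adjusted p 0.0252) beside NIC values of 0.11 and 0.357. At intron 6 of Aldoa (a glycolytic aldolase) it was 0.96 and 0.696 (adjusted p 0.0337). In these 4 introns the pool with the lower coSE was the one with the higher NIC. All 4 met the rule in the induced pool alone, and NIC and coSE share the spliced reads. The opposite movement is therefore partly built in and is a description.

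Higher in the induced pool were neighbouring introns of Txnip and introns of Rbm5, Arfgap2 and Dcaf8. At Txnip introns 5 and 6 coSE was 0.479 and 0.373 before induction, then 0.821 and 0.725 (adjusted p of the Fisher's exact test 0.00314 and 0.00374), and their NIC was 0.153 and 0.18, then 0.0638 and 0.0789. At intron 5 of Rbm5 (an RNA-binding splicing regulator), 11 of 26 uninduced and 20 of 20 induced reads were spliced (adjusted p 0.00323). At intron 4 of Arfgap2 (a coat protein regulator of Golgi transport) they were 13 of 24 and 21 of 21 (adjusted p 0.0247), and at intron 9 of Dcaf8 6 of 27 and 12 of 15 (adjusted p 0.0485). NIC moved the opposite way to coSE at Txnip, Arfgap2 and Dcaf8, and at Rbm5 it was 0.25 on 8 reads and 0.235 on 17. The shared spliced reads make this a description here too, and both Txnip introns met the rule in the uninduced pool alone.

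The identity of the cells was checked on marker genes. Of 10 erythroid markers, 7 had reads before induction (716 in all) and 10 after it (7173), with Slc4a1, Epb42 and Tal1 at 0 before and Tal1 at 2 after, whereas the 12 markers of T cells, B cells, granulocytes and fibroblasts had none and the 3 macrophage markers had 1 read.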

How the data were processed

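Both tables were deposited by the authors with 1 line per intron and condition, taken as a pool of its libraries. Spliced reads, unspliced reads and intermediates are raw counts per the file headers. NIC is a fraction in the deposited table and equals intermediates over intermediates plus spliced reads in every line. GC content is a deposited percent, taken as that of the intron. Each splice site has a deposited score; the scoring program, the counting program and how intermediates were recognised are not given in the sources used here. The submitters' processing notes list cutadapt, minimap2, SAMtools, bedtools and Bowtie and the builds mm10 and dm3, with no roles. Of 68794 introns with coSE counts, 99.96% fell on introns of GENCODE mouse release 21 (GRCm38) once table starts were raised by 2 and ends lowered by 1, the positions printed here. Splice site letters come from the deposited table; none is printed for Rps14. Depth was 358493 spliced and 57886 unspliced observations in the uninduced and 240664 and 38707 in the induced pool.

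Shares carry 95% Wilson intervals. coSE was tested per intron by Fisher's exact test (SciPy 1.17.1, threshold 0.05), checked on simulated data; pandas 2.3.3 and matplotlib 3.10.9 were also used. Introns of 1 gene share reads and are not replicates. The members, gene lists, markers and rules were chosen with earlier results of these data known. Named introns were the 10 with the most intermediates in a pool, the 10 with the highest lower bound, the 10 meeting the rule in both pools with the most intermediates, the 5 largest NIC differences each way, those passing the coSE test, genes with at least 3 members, and the nearest to the line on each side; for genes with 3 or more members, a part is named. Introns of some genes that the rule names are not reported here. Introns named outside it (Ppox, Alad, Gata1, Pkm, Mre11a, Dctn2, Kpna2, Pitrm1 and the first introns) were picked after their values were seen. Alternatives were other thresholds, depth minimums, lower bounds, denominators, 1 intron per gene, and a chi-square test.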

Additional observations from a re-analysis of the deposited data

How the results depend on the processing

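No paired analysis was possible because the tables give no values per replicate, and leaving out replicates was not run for the same reason. The number of introns followed the rule: 84 with a NIC of at least 0.30, 102 with at least 20 reads and 73 with a lower Wilson bound of at least 0.15, against 388; under these 3 settings the share chosen in the uninduced pool that also met the rule in the induced pool was 56.5%, 77.8% and 58.3%, against 40.9%. From the induced pool it was 56.0% with at least 20 reads, against 38.4%. With a NIC of at least 0.30 and with the lower bound, the share with a low 3′ score was 73.8% and 75.3%, the share of short introns 75.0% and 75.3%, the share with a GC content above the median 63.1% and 68.5% (49.2% as chosen), and the share with a low coSE 92.9% and 94.5% (72.7% as chosen; 67.8% with 1 intron per gene). The share with a low 5′ score was 61.6% with the lower bound. The cause of these shifts was not tested. The other 33 values stayed within 1.5 times the count, or inside the 95% interval of the share, as chosen. They include 288 introns with unspliced reads in the denominator and 279 with at least 3 intermediates, against 388, and the chosen introns past the coSE threshold, 7 of 243 by the chi-square test (2.88%, against 1.48% of all introns tested) and 10 of 97 with at least 20 reads (10.3%, against 5.11%), beside 9 of 243. Settings with at least 3 intermediates and those on first introns were chosen after seeing the data. Depth is a limit: with a median of 14 and 16 reads at chosen introns, a NIC of 0 does not show absence.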

Other observations

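Introns with an unusual closing or opening sequence were looked up after their values had been seen. Among the 5409 introns, 6 close with GAG in place of CAG, TAG or AAG, and 3 of them were intermediate-rich. Besides Narf intron 8 (14 intermediates in 35 uninduced and 19 in 74 induced reads) these were Mre11a intron 9 (7 in 17 and 6 in 16) and Ptcd3 intron 13, in a gene of the mitochondrial ribosome (5 in 13 uninduced reads). The other 3, in Tiprl, Ect2 and Cacna1c, had 0 in 10, 1 in 13 and 1 in 15 uninduced reads. Of 5 chosen introns that do not open with GT, 4 open with GC, those of Dnmt1 (intron 10), Rack1 (intron 2), Prc1 (intron 4) and Smim5 (intron 2, 8 in 13 uninduced reads), and 1 is of the AT to AC kind, intron 2 of Zc3hc1 (3 in 17). GC openings were 1.03% of chosen introns (Wilson interval 0.402 to 2.62%) and 0.637% of the others (interval 0.452 to 0.898%), intervals that overlap.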
